A study of Mus musculus with 36 samples.

Results

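Type I interferon-stimulated genes are genes that cells switch on when interferon alpha or beta binds its receptor. The 32 genes described here were taken by name from the 24061 gene names in the files, and each is represented by the RefSeq transcript row that held most reads over all libraries. They comprise 10 RNA binders of the Ifit and Oas families with Eif2ak2, 10 further antiviral effectors (Mx1, Mx2, Rsad2, Cmpk2, Bst2, Ifi27l2a, Rtp4, Xaf1, Ifi44 and Ifi35), 4 genes of the ISG15 system and ubiquitin ligases (Isg15, Usp18, Herc6 and Trim30a), 3 transcription factors (Irf7, Irf9 and Stat2) and 5 PARP and p200 genes (Parp9, Parp14, Ifi203, Ifi204 and Ifi205). The gene that the files name I830012O16Rik is Ifit3b. RNA came from endothelial cells, fibroblasts and myocytes of hearts of wild-type C57Bl6J mice. The hearts had received 12 Gy in 1 fraction from a small animal microirradiator (RT) or a sham treatment, and cells were collected 6 hours, 7 days or 28 days later. The labels give neither the age of the mice nor the way the cell types were separated. Each of the 18 groups held 2 libraries, so a value per group below rests on n = 2 unless another n is given. The labels do not say whether the 2 libraries of a group came from separate mice, and p-values therefore measure only the spread between these libraries.

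Interferon alpha and beta bind a receptor made of Ifnar1 and Ifnar2, whose kinases phosphorylate STAT proteins. Stat2 and Irf9 are parts of the complex ISGF3, which binds the interferon-stimulated response element (ISRE) in the promoters of the responding genes, and Irf7, itself induced, drives further interferon transcription. Most of the products act against viruses: Ifit proteins bind foreign RNA, Oas enzymes make the oligoadenylates that activate RNase L, Isg15 is a ubiquitin-like modifier, and Usp18 removes Isg15 from proteins and dampens receptor signalling. DNA damage is known to be able to start the same programme through sensors of nucleic acids in the cytosol.

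Read totals over 1 transcript row per gene, in megareads (M), were 25.91 M to 45.49 M in endothelial libraries, 25.63 M to 31.94 M in fibroblast libraries and 10.18 M to 19.42 M in myocyte libraries. Each cell type label matched its defining markers: 12 endothelial genes summed to 13997.4 to 16862.7 CPM (reads of a gene scaled to a common library total) in endothelial libraries, 12 fibroblast genes to 32000.2 to 43067.8 CPM in fibroblast libraries, and 12 cardiomyocyte genes to 85685.8 to 106439.2 CPM in myocyte libraries. Myocyte libraries also held 1475.1 to 3446.7 CPM of the endothelial genes and 652.1 to 1166.0 CPM of 13 macrophage and monocyte genes. Those 13 genes summed to 28.7 to 53.1 CPM in endothelial libraries and to 30.4 to 67.5 CPM in fibroblast libraries. The first myocyte RT library at 7 days stood apart from the other myocyte libraries, with a normalization factor of 0.838, and numbers of genes called that move without it are also given without it. The p53 targets Cdkn1a, a cell cycle inhibitor, and Mdm2, the ligase that degrades p53, served as a check of irradiation. At 6 hours Cdkn1a was 3.68-fold higher in RT than in sham endothelial cells, 7.62-fold higher in fibroblasts and 4.43-fold higher in myocytes, and Mdm2 was 4.82-fold, 4.23-fold and 2.54-fold higher.

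The promoters of several of these genes carry the element through which interferon acts. Promoters are shown for genes that held a match before the start and changed in the most comparisons. A promoter window of 300 bases, with 250 before and 50 after the start, was found for 23 of the 32 genes in RefSeq (build GRCm38.p6), and Oas2, Mx1, Mx2, Usp18, Ifi27l2a, Rtp4, Parp9, Parp14 and Ifi204 had none. The ISRE core was searched as GAAANNGAAA and, on the other strand, as TTTCNNTTTC, with overlapping matches counted separately. It was found in 13 of the 23 genes (56.5%), against 3.99% of the 27025 genes in the table, and 2 or more matches were found in 7 of the 23 genes, against 0.266% of all genes. The 200 bases before the start are printed 5′ to 3′ on the strand of the gene, with the matches in capitals.
Isg15 (chr4:156200819-156201018, minus strand): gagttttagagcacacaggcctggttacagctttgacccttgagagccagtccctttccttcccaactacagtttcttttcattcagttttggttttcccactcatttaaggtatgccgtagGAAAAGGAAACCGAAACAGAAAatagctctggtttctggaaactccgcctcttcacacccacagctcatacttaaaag
Bst2 (chr8:71537473-71537672, minus strand): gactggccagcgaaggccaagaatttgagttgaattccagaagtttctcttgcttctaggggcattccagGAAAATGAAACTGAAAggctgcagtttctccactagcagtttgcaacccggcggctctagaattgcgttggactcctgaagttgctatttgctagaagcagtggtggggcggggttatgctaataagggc
I830012O16Rik (chr19:34607757-34607956, plus strand): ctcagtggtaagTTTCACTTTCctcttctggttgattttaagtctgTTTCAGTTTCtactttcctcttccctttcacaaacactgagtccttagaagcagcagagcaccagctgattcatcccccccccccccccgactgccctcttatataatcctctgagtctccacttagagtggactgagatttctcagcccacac
Ifit1 (chr19:34640689-34640888, plus strand): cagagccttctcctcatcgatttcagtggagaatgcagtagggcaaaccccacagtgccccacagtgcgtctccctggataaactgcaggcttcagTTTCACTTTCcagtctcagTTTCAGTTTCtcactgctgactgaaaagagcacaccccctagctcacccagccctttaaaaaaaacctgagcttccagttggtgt
Rsad2 (chr12:26456453-26456652, minus strand): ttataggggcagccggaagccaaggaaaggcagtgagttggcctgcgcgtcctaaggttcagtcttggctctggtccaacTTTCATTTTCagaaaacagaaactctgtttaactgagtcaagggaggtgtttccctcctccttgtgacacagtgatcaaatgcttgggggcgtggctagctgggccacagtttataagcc
Isg15 held 3 overlapping matches that began 78, 72 and 66 bases before the start, and Bst2 held 2 overlapping matches that began 130 and 124 bases before it. Ifit1 and I830012O16Rik held 2 separate matches each, which began 104 and 85 bases before the start of Ifit1 and 188 and 154 bases before that of I830012O16Rik. The single match of Rsad2 began 120 bases before the start. The windows of Ifit2, Oasl1, Oasl2, Cmpk2, Xaf1, Ifi44, Ifi35, Herc6, Irf7 and Irf9 held none. A match is a description of the sequence and was not tested as a binding site.

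Without radiation, endothelial cells held the most RNA of most of these genes. Per transcript length, in RPKM, which scales reads by transcript length and library total, the mean over 6 sham libraries was highest in endothelial cells for 26 genes, in fibroblasts for 4 (Ifi205, Ifi27l2a, Oasl2 and Ifi204) and in myocytes for 2 (Mx1 and Oas3). Bst2, a membrane protein that tethers budding viruses, was at 164.9 ± 7.15 RPKM in endothelial cells, 37.4 ± 2.28 RPKM in fibroblasts and 33.2 ± 11.9 RPKM in myocytes (SD, n = 6 each). Isg15 was at 36.9 ± 3.67 RPKM in endothelial cells, 10.1 ± 1.18 RPKM in fibroblasts and 6.79 ± 1.75 RPKM in myocytes (SD, n = 6 each). For both genes every sham endothelial library lay above every sham library of the other cell types. Mx1, which carries a deletion in most laboratory mouse strains, and Oas3 were the lowest genes, at 0.129 ± 0.0576 and 0.0256 ± 0.00504 RPKM in sham endothelial cells (SD, n = 6).

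**Figure D1:**
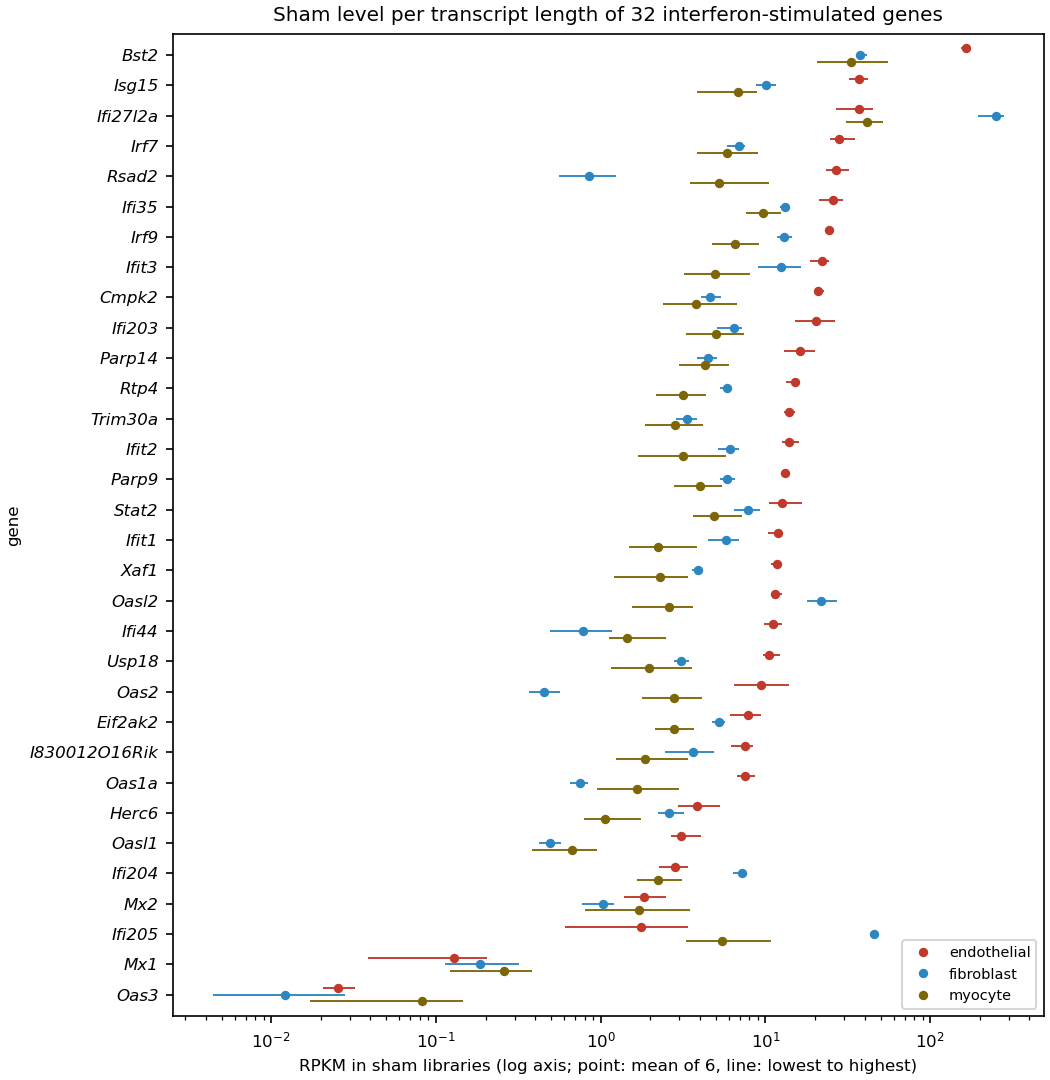
Level of each gene in sham libraries, in RPKM on a log axis. Points are means of 6 libraries per cell type and lines run from the lowest to the highest library. The endothelial point is the rightmost for 26 of the 32 genes, and the fibroblast point is the rightmost for Ifi205, Ifi27l2a, Oasl2 and Ifi204.

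Sham levels were compared between cell types with edgeR's quasi-likelihood test on all 36 libraries, and a gene was called when its p, adjusted over all genes by Benjamini-Hochberg, was under 0.05. In sham endothelial cells, 26 of the 32 genes were higher and 4 lower than in sham fibroblasts, where 37.5% of the 16234 genes tested were higher and 36.7% lower, and the median log2 difference was 1.14 for the 32 genes and 0.01 over all genes. Rsad2, an enzyme that makes a chain-terminating nucleotide, had a lowest, median and highest value of 139.0, 153.7 and 192.9 CPM in 6 sham endothelial libraries, against 3.39, 4.69 and 7.5 CPM in 6 sham fibroblast libraries. It was 31.3-fold higher in endothelial cells (adjusted p = 1.48e-16), and Oas2 was 19.2-fold, Ifi44 14.2-fold, Cmpk2 4.45-fold and Trim30a 4.11-fold higher. Ifi205, a p200 protein, went the other way: it spanned 1.56 to 8.73 CPM in sham endothelial and 113.1 to 122.7 CPM in sham fibroblast libraries (log2 difference -4.89, SE 0.19, adjusted p = 5.23e-18). In sham myocytes 4 genes were higher and 26 lower than in sham endothelial cells (37.5% and 41.8% of all genes), with a median log2 difference of -1.68 against -0.09 over all genes. Irf9, Trim30a, Cmpk2, Oasl2, Ifi44 and Rtp4 had the smallest p, with log2 differences of -1.49, -1.92, -2.10, -1.74, -2.53 and -1.84. Against sham fibroblasts, 9 genes were higher and 15 lower in sham myocytes (39.4% and 41.9% of all genes), with a median of -0.19 against -0.05. Oas2 and Rsad2 were higher in sham myocytes (log2 differences 3.0 and 2.97), and Oasl2, Ifi205, Ifi27l2a and Ifi204 lower (-2.68, -2.74, -2.20 and -1.31).

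Sham levels were also compared between the 3 times. In endothelial cells 9 of the 32 genes differed, a share near that of all genes (27.4%), so that nothing about these genes is read from the number. The 6 with the smallest p were Ifi27l2a, Oas2, Stat2, Ifi205, Ifi203 and Herc6. Oas2 was at 44.4 and 42.8 CPM at 6 hours, 46.5 and 39.2 CPM at 7 days and 85.5 and 85.8 CPM at 28 days in sham endothelial libraries (adjusted p = 0.00644). The count fell to 2 when the second 28-day endothelial sham library was left out, and to 5 when the first 28-day or the first 6-hour one was. In sham fibroblasts, Stat2 differed between times (adjusted p = 0.047), 1 of 32 genes, against 7.19% of all genes. In sham myocytes edgeR called 0 of the 32 genes and 0% of all genes, with 11 of the 32 at an unadjusted p under 0.05 and 0 called by DESeq2 or limma. Leaving out the first myocyte RT library of 7 days gave a count of 1.

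**Figure D2:**
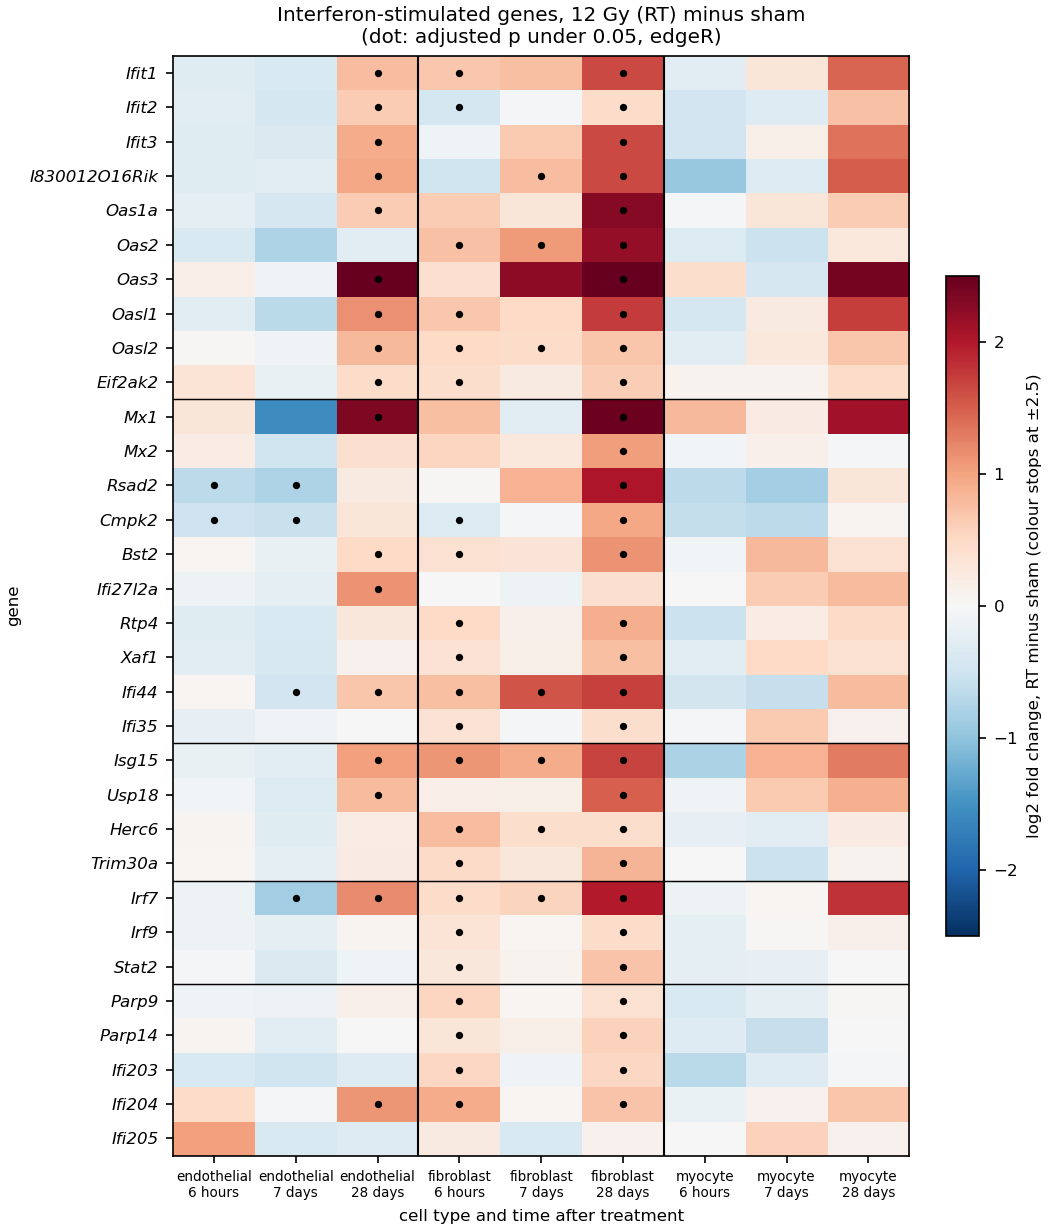
Log2 fold change, RT minus sham, of each gene (rows, grouped by role) in each cell type and time (columns), with the colour scale stopped at ±2.5 and a dot where the adjusted p was under 0.05. Dots fill most of the fibroblast columns at 6 hours (22 genes) and 28 days (30 genes) and 17 places at 28 days in endothelial cells, and no dot lies in the myocyte columns.

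At 6 hours after irradiation, 20 of the 32 genes were higher and 2 lower in RT than in sham fibroblasts, where 12.3% of the 14998 genes tested were higher and 12.3% lower, and the median log2 fold change was 0.44 against 0.00 over all genes. The changes were mostly under 2-fold. By role, 5 of 10 RNA binders were higher and 1 lower, and 5 of 10 antiviral effectors were higher and 1 lower. Of the ISG15 system and ubiquitin ligases 3 of 4 genes were higher, with 3 of 3 transcription factors and 4 of 5 PARP and p200 genes. Isg15 was at 23.3 and 32.5 CPM in RT fibroblasts, against 14.0 and 11.9 CPM in sham fibroblasts (2.14-fold, log2 fold change 1.1, SE 0.19, adjusted p = 0.000639). Herc6, the ligase that attaches Isg15 in mouse, was at 40.3 and 41.4 CPM in RT and 20.9 and 26.8 CPM in sham fibroblasts (1.71-fold, adjusted p = 5.19e-05). In both genes the RT libraries lay clear of the sham libraries. The protease Usp18, at 9.14 and 10 CPM in RT and 8.02 and 8.9 CPM in sham fibroblasts, had narrowly separate groups and did not pass the test (adjusted p = 0.337). Ifi204, a p200 sensor of DNA, was at 47.5 and 49.1 CPM in RT and 23.2 and 27.7 CPM in sham fibroblasts (1.89-fold, adjusted p = 0.000134), and Parp9, an ADP-ribosyltransferase, was at 49.6 and 52.0 CPM in RT and 32.7 and 37.0 CPM in sham fibroblasts (1.45-fold, adjusted p = 0.000104).

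The Ifit genes, which lie side by side on chromosome 19, did not move together at 6 hours. Ifit1 was at 42.1 and 47.5 CPM in RT and 26.7 and 28.9 CPM in sham fibroblasts and was higher (log2 fold change 0.68, SE 0.18, adjusted p = 0.0129). Ifit2 was at 33.0 and 29.7 CPM in RT and 42.2 and 43.0 CPM in sham fibroblasts and was lower (-0.44, SE 0.08, adjusted p = 0.00112). Ifit3 was at 41.8 and 46.4 CPM in RT and 42.9 and 52.1 CPM in sham fibroblasts, with overlapping groups (adjusted p = 0.724). The other gene called lower was Cmpk2, a mitochondrial nucleotide kinase, at 17.8 and 16.3 CPM in RT and 20.6 and 22.7 CPM in sham fibroblasts (-0.35, SE 0.11, adjusted p = 0.0335). Among the genes with smaller rises, Oasl2 was at 169.6 and 187.1 CPM in RT and 117.0 and 136.1 CPM in sham fibroblasts (1.41-fold, adjusted p = 0.00185), and Irf7 at 30.1 and 30.0 CPM in RT and 21.7 and 22.2 CPM in sham fibroblasts (1.37-fold, adjusted p = 0.00579). In both, the RT libraries lay clear of the sham libraries. Eif2ak2, the RNA-activated kinase PKR, was at 47.9 and 50.8 CPM in RT and 33.9 and 39.2 CPM in sham fibroblasts (1.35-fold). Irf9, the DNA-binding part of ISGF3, was at 66.0 and 67.0 CPM in RT and 48.6 and 55.4 CPM in sham fibroblasts (1.28-fold), and Rtp4, a chaperone of receptors, at 19.2 and 20.8 CPM in RT and 13.3 and 15.1 CPM in sham fibroblasts (1.40-fold). Cd14 was higher in the same RT fibroblasts, at 15.4 and 17.0 CPM against 3.91 and 3.16 CPM in sham. It was the 1 gene called of 9 macrophage and monocyte markers tested. Of these 9, 3 log2 fold changes were positive and 6 negative, with a median of -0.01. The 13 markers, Cd14 among them, summed to 63.8 and 67.5 CPM in RT and 43.9 and 54.1 CPM in sham fibroblasts. Their part in the result was not tested. Of 12 endothelial markers, 1 was called higher and 2 lower in RT fibroblasts at 6 hours, with 10 at an unadjusted p under 0.05 and a median log2 fold change of 1.44, and in none did both RT libraries lie above both sham libraries. These markers summed to 643.1 and 863.0 CPM in RT and 817.2 and 840.4 CPM in sham fibroblasts. Of 12 fibroblast markers 5 were called lower, with sums of 32390.0 and 32000.2 CPM in RT and 37307.8 and 40102.8 CPM in sham fibroblasts. Of 8 pericyte and smooth muscle markers 5 were called lower, with sums of 1186.0 and 1116.5 CPM in RT and 1620.4 and 1567.3 CPM in sham fibroblasts. The part of these markers in the result was not tested. In bulk samples a change in the number of cells of a type and a change in RNA per cell cannot be told apart. The count of 22 genes was 14 (13 higher and 1 lower) without the second fibroblast RT library at 6 hours, and 8, all higher, in a single fit of all 36 libraries.

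In endothelial cells at 6 hours, 0 genes were higher and 2 lower, where 6.1% of the 14919 genes tested were higher and 5.23% lower. The share called lower was near that of all genes, so that nothing about the set is read from this number. Rsad2 was at 132.2 and 94.5 CPM in RT and 158.6 and 188.1 CPM in sham endothelial cells (log2 fold change -0.65, SE 0.17, adjusted p = 0.0247). Cmpk2, its neighbour on chromosome 12, was at 87.7 and 68.2 CPM in RT and 109.5 and 106.6 CPM in sham endothelial cells (-0.52, SE 0.12, adjusted p = 0.0131). The median log2 fold change of the 32 genes was -0.12, against 0.01 over all genes. Isg15, at 47.3 and 38.3 CPM in RT and 49.9 and 44.4 CPM in sham endothelial cells, did not pass the test (adjusted p = 0.299), nor did Irf7 at 99.5 and 75.7 CPM in RT and 103.1 and 80.9 CPM in sham cells. Their groups overlapped, as did those of Oasl2 (63.3 and 58.4 CPM in RT, 56.3 and 59.5 CPM in sham cells) and Usp18 (35 and 27.8 CPM in RT, 34.4 and 28.8 CPM in sham cells). Ifit1 was at 42.9 and 41.0 CPM in RT and 52.4 and 47.6 CPM in sham cells, and Ifit3 at 69.2 and 57.8 CPM in RT and 75.6 and 76.6 CPM in sham cells, with RT libraries below sham libraries and an adjusted p of 0.0905 and 0.0762. Cd14 was higher here too, at 7.13 and 5.81 CPM in RT and 3.65 and 3.24 CPM in sham endothelial cells. It was the 1 gene called of 12 macrophage and monocyte markers tested. Of these 12, 7 log2 fold changes were positive and 5 negative, with a median of 0.1. The 13 markers summed to 41.6 and 53.1 CPM in RT and 40.2 and 48.5 CPM in sham cells. Of 12 endothelial markers 2 were called lower, and of 12 fibroblast markers 2 higher and 1 lower. Of 8 T, NK and B cell markers tested 1 was called lower, as was 1 of 8 pericyte and smooth muscle markers. The part of these markers in the values was not tested. Leaving out the first sham or the second RT library of 6 hours gave a count of 0. Leaving out the second sham library gave 1, as did a single fit of all 36 libraries, and leaving out the first RT library of 6 hours, or either RT library of 28 days, gave 5, which in the 28-day case were 4 lower and 1 higher.

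In myocytes at 6 hours edgeR called 0 of the 32 genes and 0.326% of the 14115 genes tested, with 3 of the 32 at an unadjusted p under 0.05 and 0 called by DESeq2 or limma. Their median log2 fold change was -0.25, against 0.00 over all genes. Isg15 was at 5.12 and 6.54 CPM in RT and 10.3 and 9.72 CPM in sham myocytes, so that both RT libraries lay below both sham libraries, with an adjusted p of 1. The same order held for Ifit3 (10.2 and 12.4 CPM in RT, 14.5 and 16.2 CPM in sham myocytes), Ifit1 (7.4 and 8.29 CPM in RT, 10.1 and 8.58 CPM in sham) and Oasl2 (11.7 and 12.6 CPM in RT, 14.4 and 15 CPM in sham), with an adjusted p of 1 each. Irf7 (15.7 and 19.7 CPM in RT, 16.1 and 22.2 CPM in sham) and Usp18 (5.06 and 5.92 CPM in RT, 5.69 and 5.77 CPM in sham) had overlapping groups. Leaving out the first myocyte RT library of 7 days gave a count of 1, called lower. Whether the response at 6 hours differed between the cell types was tested on all 36 libraries. It did for 5 of the 32 genes, where 2.11% of all genes differed, namely Ifi203, Isg15, Rtp4, Parp9 and Ifi204. The log2 fold change of Isg15 was 1.1 in fibroblasts, -0.19 in endothelial cells and -0.80 in myocytes (adjusted p = 0.0107). That of Ifi203 was 0.51 in fibroblasts, -0.39 in endothelial cells and -0.68 in myocytes (adjusted p = 0.00501). The count of 5 fell to 1 without any of 3 fibroblast libraries (both sham libraries or the second RT library at 6 hours), and was 10 without the second and 9 without the first myocyte RT library at 7 days.

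At 7 days after irradiation, 4 of the 32 genes were lower in RT than in sham endothelial cells. All 32 log2 fold changes were negative, with a median of -0.36 against 0.00 over all genes, and in 28 genes both RT libraries lay below both sham libraries, where 20.6% of all genes did. The test called 0 higher and 4 lower, against 0.925% and 0.891% of all genes. Irf7, the transcription factor that amplifies interferon production, was at 45.0 and 47.1 CPM in RT and 85.1 and 80.6 CPM in sham endothelial cells (0.552-fold, log2 fold change -0.86, SE 0.14, adjusted p = 0.00446). Rsad2 was at 69.8 and 96.7 CPM in RT and 139.0 and 146.0 CPM in sham cells (-0.78, SE 0.17, adjusted p = 0.0313), and Cmpk2 at 65.5 and 74.6 CPM in RT and 102.4 and 102.5 CPM in sham cells (-0.56, SE 0.12, adjusted p = 0.0264). Ifi44, an interferon-induced protein with a GTP-binding motif, was at 38.7 and 43.1 CPM in RT and 58.4 and 54.2 CPM in sham cells (-0.47, SE 0.10, adjusted p = 0.0224). These 4 genes had separate groups, as had several that did not pass the test. Isg15 was at 36.4 and 40.0 CPM in RT and 44.9 and 47.1 CPM in sham cells (adjusted p = 0.374), and Ifit1 at 36.6 and 41.3 CPM in RT and 50.7 and 50.9 CPM in sham cells (adjusted p = 0.109). Ifit3 was at 51.3 and 56.5 CPM in RT and 68.3 and 69.2 CPM in sham cells, and Usp18 at 22 and 24.4 CPM in RT and 30.2 and 28.1 CPM in sham cells. Oasl2 alone of the 6 genes plotted had overlapping groups, at 59.5 and 53.1 CPM in RT and 55.8 and 62.7 CPM in sham cells. The count of 4 was 0 without the first RT or the first sham endothelial library at 7 days, and 2 without the second of either. It was 1 in a single fit of all 36 libraries and 1 by limma. Of 12 fibroblast markers, 10 had both RT libraries below both sham libraries (median log2 fold change -0.21, 1 called lower), with sums of 3092.4 and 2830.6 CPM in RT and 3396.5 and 3420.5 CPM in sham endothelial libraries. All 6 erythroid genes had both RT libraries above both sham libraries, with sums of 1214.7 and 1608.6 CPM in RT and 1070.4 and 938.6 CPM in sham endothelial libraries (0 called). The part of these markers in the result was not tested.

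In fibroblasts at 7 days, 7 genes were higher and 0 lower, against 1.51% and 0.327% of all genes, with a median log2 fold change of 0.25 against 0.00. The 7 were Ifi44, Irf7, Isg15, Oas2, Oasl2, Herc6 and I830012O16Rik. Ifi44 was at 5.73 and 9.02 CPM in RT and 2.29 and 2.69 CPM in sham fibroblasts (2.96-fold, log2 fold change 1.57, SE 0.24, adjusted p = 0.00278). Isg15 was at 17.3 and 24.8 CPM in RT and 11.6 and 10.6 CPM in sham fibroblasts (1.90-fold, adjusted p = 0.0233), and Irf7 at 25.3 and 31.2 CPM in RT and 21.3 and 17.2 CPM in sham fibroblasts (1.46-fold, adjusted p = 0.0152). The second RT library held the larger value of the pair for all 7 genes called. Oas2 was at 4.97 and 7.24 CPM in RT and 3.06 and 2.79 CPM in sham fibroblasts (2.09-fold, adjusted p = 0.025), and Oasl2 at 134.1 and 138.7 CPM in RT and 89.7 and 109.2 CPM in sham fibroblasts (1.37-fold, adjusted p = 0.0278). Herc6 was at 25.0 and 27.9 CPM in RT and 18.8 and 20.2 CPM in sham fibroblasts (1.36-fold, adjusted p = 0.0426), and I830012O16Rik at 12.1 and 18.6 CPM in RT and 10.1 and 7.89 CPM in sham fibroblasts (1.71-fold, adjusted p = 0.0495). Its relatives Ifit1, at 27.8 and 45.5 CPM in RT and 22.9 and 20.7 CPM in sham fibroblasts (adjusted p = 0.0578), and Ifit3, at 42.5 and 64.1 CPM in RT and 37.2 and 30.0 CPM in sham fibroblasts (adjusted p = 0.131), had separate groups and did not pass the test. Usp18, at 9.46 and 11.0 CPM in RT and 8.71 and 9.67 CPM in sham fibroblasts, had overlapping groups. Without the second RT library at 7 days none of the 32 genes was called higher and 1 was called lower. The count was 2, both higher, without either sham library at 7 days, 2 by limma and 1 in a single fit of all 36 libraries. Of 12 endothelial markers, 10 had both RT fibroblast libraries above both sham libraries at 7 days, with a median log2 fold change of 0.87 (0 called higher, 1 called lower). These markers summed to 756.9 and 728.9 CPM in RT and 694.7 and 761.5 CPM in sham fibroblasts. Of the 7 genes called, Ifi44, Irf7, Isg15, Oas2, Herc6 and I830012O16Rik had a higher mean sham RPKM in endothelial cells than in fibroblasts. Oasl2 had a lower one. The endothelial sham mean was the highest of the cell types for 26 of all 32 genes. The part of the endothelial markers in the result was not tested.

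In myocytes at 7 days edgeR called 0 of the 32 genes and 0.085% of all genes, with 7 of the 32 at an unadjusted p under 0.05 and 0 called by DESeq2 or limma. Their median log2 fold change was 0.10, against 0.02 over all genes. The RT libraries of Isg15 lay far apart, at 14.5 and 6.59 CPM in RT and 7.98 and 5.03 CPM in sham myocytes, with Irf7 at 16.5 and 11.5 CPM in RT and 17.9 and 12.4 CPM in sham myocytes. Ifit1 (9.89 and 8.98 CPM in RT, 9.91 and 6.81 CPM in sham), Ifit3 (19.4 and 11.3 CPM in RT, 19.9 and 11.1 CPM in sham) and Oasl2 (12.5 and 10.8 CPM in RT, 12.9 and 8.51 CPM in sham) had overlapping groups too. Usp18, at 5.43 and 5.94 CPM in RT and 4.33 and 3.54 CPM in sham myocytes, had separate groups (adjusted p = 0.349). The count was 0 without the first RT library, the one that stood apart. It was 10, 5 higher and 5 lower, without the second RT library, which leaves the library that stood apart as the only one of its group. The response at 7 days differed between cell types for 2 of the 32 genes, against 0.363% of all genes. The log2 fold change of Ifi44 was 1.57 in fibroblasts, -0.47 in endothelial cells and -0.57 in myocytes (adjusted p = 0.00181), and that of Oas2 was 1.06 in fibroblasts, -0.77 in endothelial cells and -0.53 in myocytes (adjusted p = 0.031). This count was 19 without the second and 4 without the first myocyte RT library at 7 days, and 1 without any of the 4 endothelial libraries at 7 days, either fibroblast sham library or the second fibroblast RT library.

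At 28 days after irradiation, nearly the whole set stood higher in RT than in sham fibroblasts. There, 30 of the 32 genes were higher and 0 lower, where 2.48% of the 14998 genes tested were higher and 0.813% lower. The median log2 fold change was 0.93 against 0.00 over all genes, and in 31 genes both RT libraries lay above both sham libraries, where 26.1% of all genes did. All 10 RNA binders, 9 of 10 antiviral effectors and 4 of 4 genes of the ISG15 system and ubiquitin ligases were higher. So were 3 of 3 transcription factors and 4 of 5 PARP and p200 genes. The 2 genes not called were Ifi27l2a, at 297.1 and 221.4 CPM in RT and 202.2 and 182.8 CPM in sham fibroblasts (adjusted p = 0.0889), and Ifi205, at 142.2 and 119.7 CPM in RT and 117.1 and 122.7 CPM in sham fibroblasts (adjusted p = 0.757). These are the 2 members whose RPKM level in sham fibroblasts was highest.

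Irf7 had the smallest p of the set in fibroblasts at 28 days, at 81.8 and 78.4 CPM in RT and 19.4 and 20.6 CPM in sham fibroblasts (3.94-fold, log2 fold change 1.98, SE 0.10, adjusted p = 1.57e-07). Its partners in the pathway changed less: Stat2 was 1.64-fold and Irf9 1.36-fold higher. Among the RNA binders, Oas1a was at 10.2 and 9.14 CPM in RT and 1.99 and 1.97 CPM in sham fibroblasts (4.81-fold, adjusted p = 4.56e-05), and Oas2 at 12.6 and 11.1 CPM in RT and 2.58 and 2.55 CPM in sham fibroblasts (4.56-fold, adjusted p = 3.69e-05). Both belong to the oligoadenylate synthetase family, and both RT libraries of each lay far above both sham libraries. The Oas-like gene Oasl2 was at 170.0 and 161.0 CPM in RT and 92.3 and 108.4 CPM in sham fibroblasts (1.62-fold, adjusted p = 0.000565). For Oas3 the RT fibroblast libraries held 43 and 21 reads and the sham libraries 1 and 3, and no fold change is given.

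The Ifit cluster rose as a whole in fibroblasts at 28 days. Ifit1 was at 76.3 and 71.5 CPM in RT and 18.8 and 27.3 CPM in sham fibroblasts (3.14-fold, log2 fold change 1.65, SE 0.18, adjusted p = 7.35e-05). Ifit3 was at 132.0 and 107.9 CPM in RT and 29.0 and 45.8 CPM in sham fibroblasts (3.15-fold, SE 0.20, adjusted p = 0.000147), and its near-copy I830012O16Rik at 38.5 and 35 CPM in RT and 9.6 and 13.4 CPM in sham fibroblasts (3.14-fold, adjusted p = 4.88e-05). Ifit2, lower at 6 hours, was 1.37-fold higher at 28 days (adjusted p = 0.00412). In the ISG15 system, Isg15, whose promoter held 3 ISRE cores, was at 46.3 and 36.2 CPM in RT and 11.2 and 13.9 CPM in sham fibroblasts (3.23-fold, adjusted p = 7.04e-05). Usp18 was at 26.0 and 21.6 CPM in RT and 7.84 and 8.73 CPM in sham fibroblasts (2.82-fold, adjusted p = 3.51e-06). The modifier and the enzyme that removes it were thus both higher at this time. Of the antiviral effectors, Bst2 was at 112.1 and 100.1 CPM in RT and 51.0 and 44.6 CPM in sham fibroblasts (2.19-fold, adjusted p = 1.59e-06), Rtp4 was at 27.9 and 27.0 CPM in RT and 13.7 and 15.3 CPM in sham fibroblasts (1.86-fold, adjusted p = 4.14e-05), and Cmpk2 at 50 and 46.6 CPM in RT and 21.2 and 27.4 CPM in sham fibroblasts (1.95-fold, adjusted p = 6.56e-05). Rsad2, the neighbour of Cmpk2, was at 24.1 and 23.3 CPM in RT and 3.82 and 7.5 CPM in sham fibroblasts (4.07-fold, adjusted p = 0.00115). The smallest change called at this time was that of Parp9, at 43.6 and 43.5 CPM in RT and 30.4 and 34.9 CPM in sham fibroblasts (1.31-fold, adjusted p = 0.00721).

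**Figure D3:**
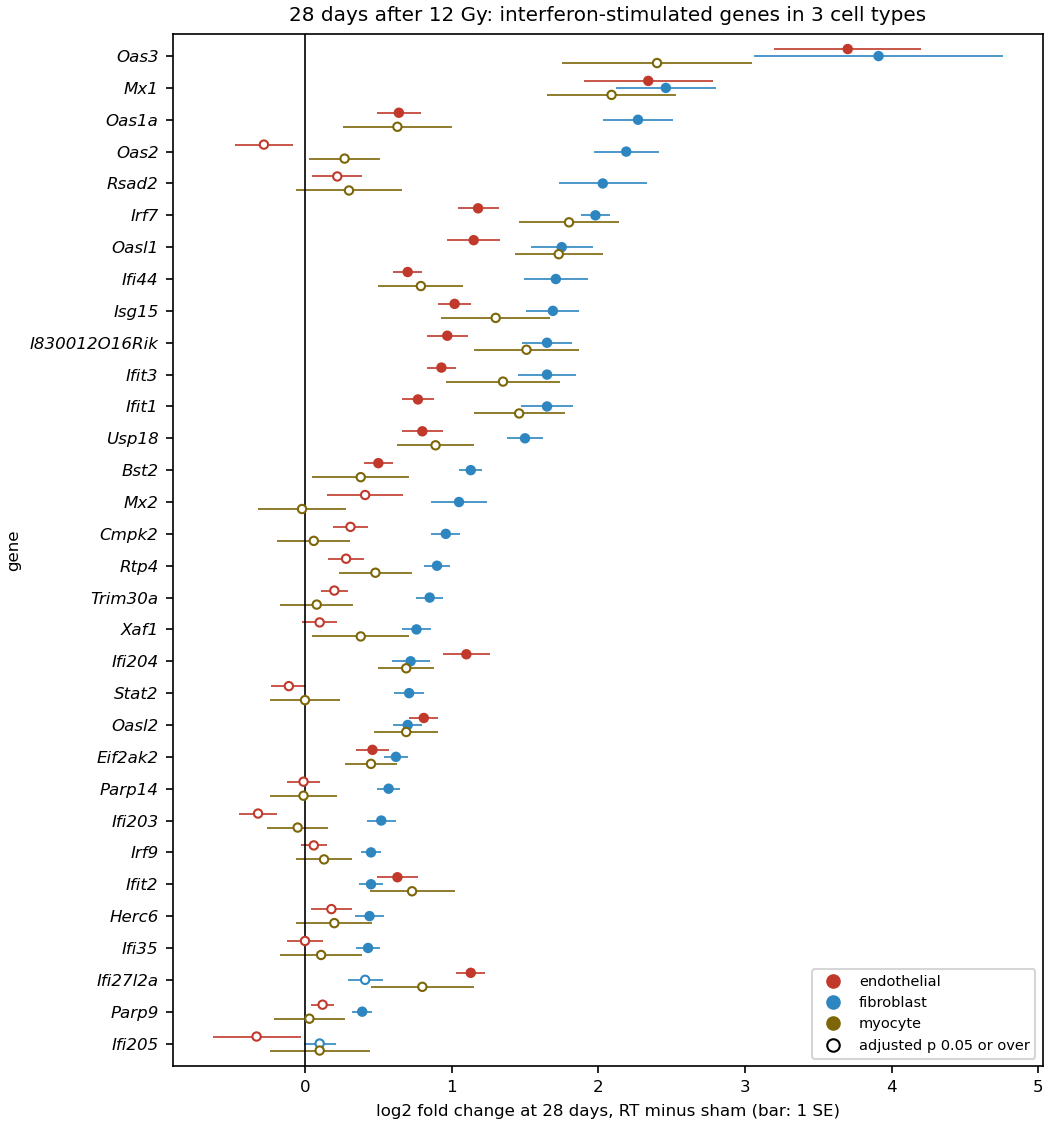
Log2 fold change at 28 days, RT minus sham, of each gene in endothelial cells, fibroblasts and myocytes. Points are edgeR estimates, bars are 1 SE, and open points had an adjusted p of 0.05 or over. Fibroblast points are filled for 30 genes and endothelial points for 17, and all myocyte points are open, with wider bars.

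In endothelial cells at 28 days, 17 genes were higher and 0 lower, where 5.72% of the 14919 genes tested were higher and 4.25% lower. The median log2 fold change was 0.48 against 0.00 over all genes, and both RT libraries lay above both sham libraries in 21 genes, where 29.3% of all genes did. By role, 9 of 10 RNA binders were higher, with 4 of 10 antiviral effectors and 2 of 4 genes of the ISG15 system and ubiquitin ligases. Also higher were 1 of 3 transcription factors and 1 of 5 PARP and p200 genes. Of the 17, 16 were also called higher in fibroblasts at 28 days, and the other was Ifi27l2a. This small membrane protein was at 44.5 and 45.9 CPM in RT and 21.5 and 19.9 CPM in sham endothelial cells (2.19-fold, log2 fold change 1.13, SE 0.10, adjusted p = 2.94e-05). Its sham libraries were higher at the earlier times, at 28.1 and 27.4 CPM at 6 hours and 32.9 and 32.6 CPM at 7 days. Its RT libraries were lower then, at 28.8 and 23.7 CPM and 27.3 and 29.1 CPM. Both sides of the comparison thus differed from the earlier times. Isg15 was at 84.2 and 75.1 CPM in RT and 39.7 and 39.0 CPM in sham endothelial cells (2.02-fold, adjusted p = 9.31e-05), and Usp18 at 54.2 and 42.9 CPM in RT and 27.1 and 28.6 CPM in sham cells (1.74-fold, adjusted p = 0.00283). Irf7 was at 180.3 and 152.9 CPM in RT and 73.3 and 73.3 CPM in sham cells (2.27-fold, adjusted p = 0.000204). Irf9, at 106.8 and 98.6 CPM in RT and 96.2 and 100.8 CPM in sham cells (adjusted p = 0.718), and Stat2, at 125.9 and 87.5 CPM in RT and 112.8 and 117.0 CPM in sham cells (adjusted p = 0.618), had overlapping groups.

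Among the endothelial RNA binders, Ifit3 was at 129.8 and 117.4 CPM in RT and 59.2 and 70.6 CPM in sham cells (1.90-fold, adjusted p = 0.000123). Ifit1 was at 84.9 and 81.5 CPM in RT and 43.7 and 53.8 CPM in sham cells (1.70-fold, adjusted p = 0.000589), and Oasl2 at 90.4 and 100.3 CPM in RT and 53.7 and 55.4 CPM in sham cells (1.75-fold, adjusted p = 0.000204). For all 3 the RT libraries lay clear of the sham libraries. I830012O16Rik was 1.96-fold, Oasl1 2.23-fold and Ifi204, the 1 called PARP or p200 gene, 2.15-fold higher. Oas3 held 77 and 43 reads in RT and 5 and 7 reads in sham endothelial libraries, or 2.67 and 1.66 CPM against 0.177 and 0.154 CPM (log2 fold change 3.70, SE 0.50, adjusted p = 0.000508). Over other methods and libraries left out, this estimate for Oas3 ran from 0.33 to 3.98, so that its size is uncertain. Ifi44 was at 85.4 and 81.7 CPM in RT and 49.4 and 53.1 CPM in sham cells (1.63-fold, adjusted p = 0.000554). The exception among the RNA binders was Oas2, at 93.5 and 48.4 CPM in RT and 85.5 and 85.8 CPM in sham endothelial cells (log2 fold change -0.28, SE 0.20, adjusted p = 0.413). Its 2 RT libraries lay on either side of the sham libraries, which were themselves higher than sham libraries at the earlier times.

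In myocytes at 28 days edgeR called 0 of the 32 genes and 0.0354% of the 14115 genes tested, with 15 of the 32 at an unadjusted p under 0.05, 5 called by DESeq2 and 2 by limma. Of the 32 log2 fold changes 28 were positive, with a median of 0.47 against -0.01 over all genes, and both RT libraries lay above both sham libraries in 18 genes, where 20.1% of all genes did. Oasl1 was at 10.6 and 9.07 CPM in RT and 2.36 and 3.47 CPM in sham myocytes (log2 fold change 1.73, SE 0.30, adjusted p = 0.179), and Irf7 at 89.8 and 63.3 CPM in RT and 14.7 and 28.6 CPM in sham myocytes (1.80, SE 0.34, adjusted p = 0.18). Isg15 was at 28.5 and 22 CPM in RT and 8.64 and 11.5 CPM in sham myocytes (1.30, SE 0.37, adjusted p = 0.588). Ifit1 was at 39.9 and 31.5 CPM in RT and 8.15 and 17.3 CPM in sham myocytes (1.46, SE 0.31, adjusted p = 0.264). In these 4 genes the groups did not overlap, and the sham libraries differed from each other by more than in the other cell types. Ifit3 was at 59.0 and 45.6 CPM in RT and 12.9 and 27.6 CPM in sham myocytes, Usp18 at 17.6 and 14.1 CPM in RT and 5.99 and 10.9 CPM in sham myocytes, and Oasl2 at 27.5 and 28.5 CPM in RT and 14.6 and 19.6 CPM in sham myocytes. Without the library that stood apart, the first myocyte RT library at 7 days, 7 genes were called higher at 28 days (Irf7, Isg15, Oasl1, Ifit1, Mx1, I830012O16Rik and Ifit3), against 0.679% of all genes, and the same 7 were called without the second.

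**Figure D4:**
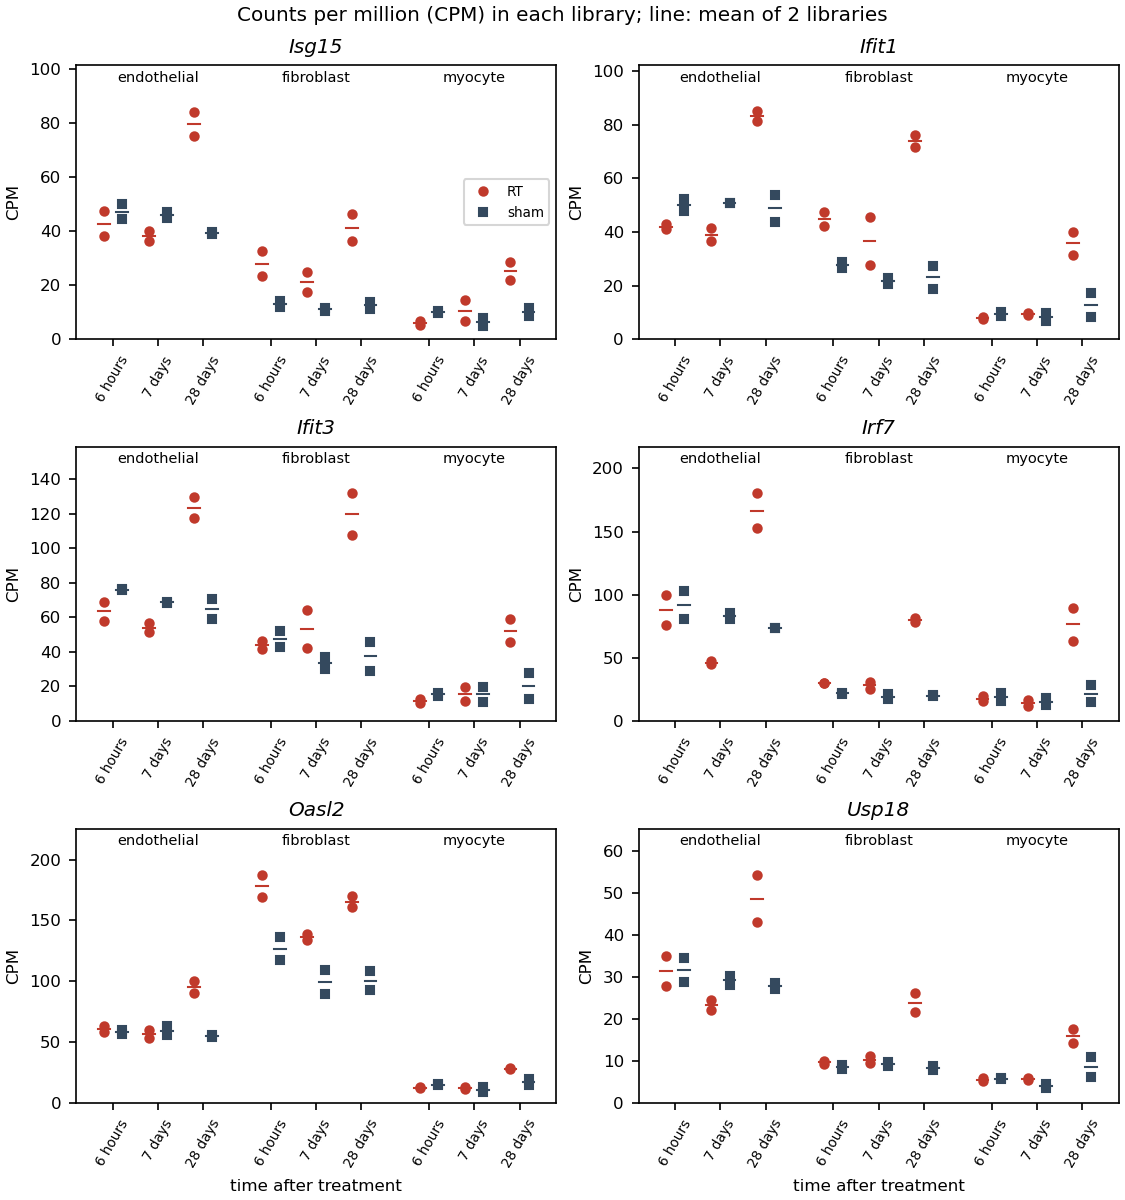
CPM of Isg15, Ifit1, Ifit3, Irf7, Oasl2 and Usp18 in each library, by cell type and time, with RT as circles, sham as squares and a line at the mean of 2 libraries. At 28 days both RT points lie above both sham points for all 6 genes in all 3 cell types, and Irf7 lies below sham in endothelial cells at 7 days.

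Whether the response differed between cell types at 28 days was tested on all 36 libraries, and it did for 1 of the 32 genes, Oas2, where 0.37% of all genes differed. The log2 fold change of Oas2 was 2.19 in fibroblasts, -0.28 in endothelial cells and 0.27 in myocytes (adjusted p = 0.00136). For the other 31 genes a difference between the cell types was not shown, although more genes were called in fibroblasts. The count was 5 without either myocyte RT library at 7 days, 4 without the first myocyte sham library at 28 days, and 2 without the second of these, the first endothelial RT library at 28 days, or either myocyte sham or either fibroblast RT library at 7 days.

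The response also differed between times. In endothelial cells 19 of the 32 genes differed between 6 hours, 7 days and 28 days in their RT minus sham change, where 6.26% of all genes did. Irf7 had log2 fold changes of -0.12, -0.86 and 1.18 at 6 hours, 7 days and 28 days (adjusted p = 0.00013), and Ifi27l2a of -0.12, -0.22 and 1.13 (adjusted p = 0.00013). Ifit3 (-0.30, -0.36 and 0.93), Isg15 (-0.19, -0.28 and 1.02), Ifi44 (0.05, -0.47 and 0.70) and Ifit1 (-0.30, -0.39 and 0.77) followed. In all 6 genes the log2 fold change was negative at 7 days and positive at 28 days. The count was 10 without the first endothelial sham library at 28 days.

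In fibroblasts 23 of the 32 genes differed between times, where 9.89% of all genes did. Irf7 had log2 fold changes of 0.45, 0.55 and 1.98 at 6 hours, 7 days and 28 days (adjusted p = 1.65e-05), Usp18 of 0.17, 0.15 and 1.5 (adjusted p = 0.000123), and Bst2 of 0.39, 0.33 and 1.13 (adjusted p = 0.00045). Cmpk2 (-0.35, -0.04 and 0.96), I830012O16Rik (-0.49, 0.77 and 1.65) and Ifit2 (-0.44, -0.02 and 0.45) were negative at 6 hours. For all 6 the largest value was that at 28 days. Isg15 was higher at every time, with 1.1, 0.92 and 1.69, and the difference between these did not pass the test (adjusted p = 0.149). Leaving out the first RT or the first sham library of 7 days, or the first sham library of 28 days, gave a count of 13, and leaving out the first RT library of 28 days gave 14, as did limma, and a single fit of all 36 libraries gave 7. In myocytes edgeR called 0 of the 32 genes and 0% of all genes, with 12 of the 32 at an unadjusted p under 0.05, 2 called by DESeq2 and 0 by limma. This count was 18 without the second and 1 without the first myocyte RT library at 7 days.

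Summed over the 32 genes, RT endothelial libraries held 2866.6 and 2531.9 CPM at 28 days, against 2001.8 and 2185.1 CPM in sham libraries. RT fibroblast libraries held 1905.8 and 1684.4 CPM, against 997.4 and 1068.6 CPM in sham libraries, and RT myocyte libraries 1083.7 and 950.4 CPM, against 581.9 and 842.6 CPM in sham libraries. The sums of the groups did not overlap in any cell type at that time. Macrophages and monocytes carry the same programme, and their 13 markers summed at 28 days to 28.7 and 35.8 CPM in RT and 31.9 and 32.8 CPM in sham endothelial libraries, and to 33.0 and 34.1 CPM in RT and 30.4 and 33.5 CPM in sham fibroblast libraries. In myocyte libraries they summed to 981.8 and 1166.0 CPM in RT and 1003.0 and 820.5 CPM in sham, and 9 of the 13 had both RT libraries above both sham libraries (11 log2 fold changes positive, median 0.32). In the same libraries 13 T, NK and B cell markers, of which 5 were tested and 0 called, summed to 33.5 and 37.7 CPM in RT and 25.2 and 23.8 CPM in sham. Of 12 endothelial markers 9 had both RT myocyte libraries below both sham libraries (0 called), with sums of 2392.3 and 2301.1 CPM in RT and 2839.4 and 3446.7 CPM in sham. Of the macrophage and monocyte markers, edgeR called 0 of the 12, 9 and 13 tested in endothelial cells, fibroblasts and myocytes at 28 days, with 3, 1 and 1 at an unadjusted p under 0.05. Fcgr1 was at 0 in all 4 fibroblast libraries, and no marker was at 0 in the other cell types. The highest marker was Lyz2 in myocytes, at 260.8 to 395.9 CPM, and the part of these markers in the myocyte values was not tested. Of 12 cardiomyocyte markers 11 had both RT endothelial libraries below both sham libraries at 28 days (2 called lower), with sums of 447.6 and 332.1 CPM in RT and 568.0 and 511.9 CPM in sham. In the same libraries 6 of 12 endothelial markers lay below and 4 above (2 called lower). They summed to 15175.7 and 15260.1 CPM in RT and 16092.4 and 16044.6 CPM in sham. Of 8 pericyte and smooth muscle markers 3 lay above and 2 below (1 called higher). Their sums were 1561.8 and 2120.2 CPM in RT and 1547.6 and 1414.6 CPM in sham. Red blood cell transcripts also differed at 28 days, with 6 erythroid genes at a summed 1040.5 and 431.2 CPM in RT and 2147.6 and 1615.8 CPM in sham endothelial libraries (5 of 6 called lower), and 249.8 and 547.1 CPM in RT and 1759.4 and 1159.7 CPM in sham fibroblast libraries (2 of 5 tested called lower). In myocytes they were at 742.8 and 996.6 CPM in RT and 1485.9 and 1342.2 CPM in sham libraries, with both RT libraries below both sham libraries in all 5 genes tested, a median log2 fold change of -0.74 and 0 called. The part of all these markers in the results was not tested.

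**Figure D5:**
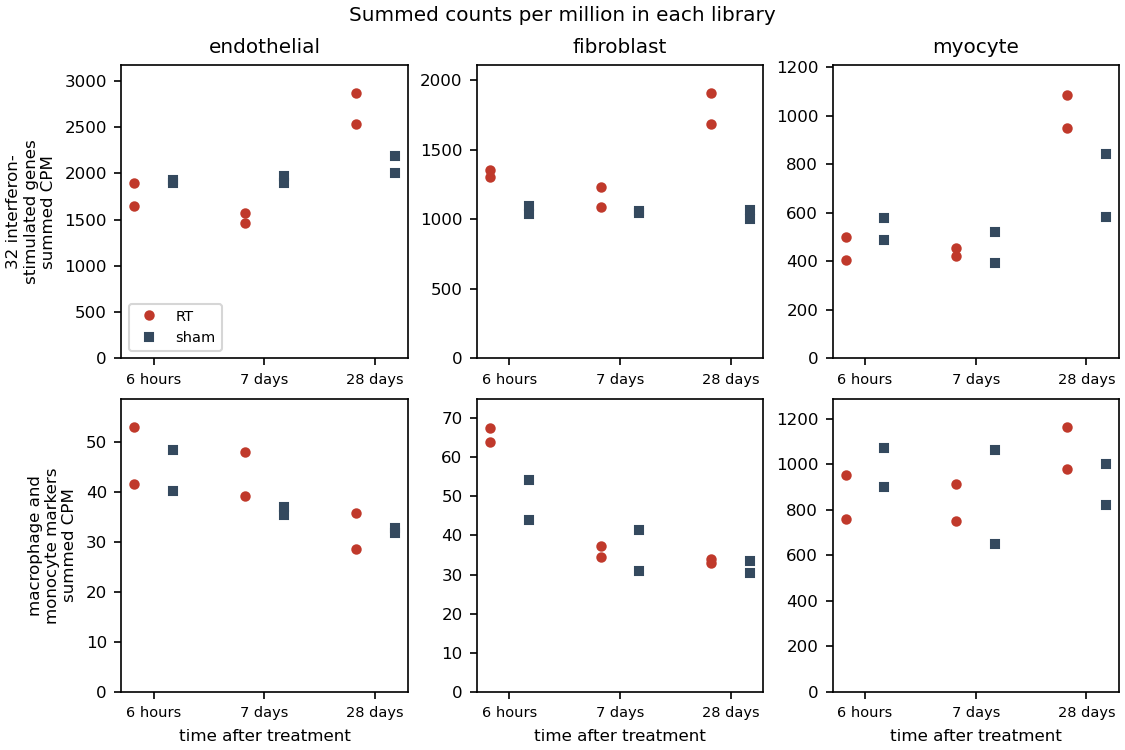
Summed CPM in each library of the 32 genes (top) and of 13 macrophage and monocyte markers (bottom), by cell type and time, with RT as circles left of sham as squares. At 28 days the sums of the 32 genes are higher in both RT libraries than in both sham libraries of each cell type, and the marker sums of RT and sham endothelial libraries overlap.

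Upstream of these genes, interferon transcripts themselves were hardly detected. None of 21 interferon genes passed the filter on low counts in any cell type, and they summed to 0.022 to 0.248 CPM in endothelial, 0.0335 to 0.209 CPM in fibroblast and 0 to 0.607 CPM in myocyte libraries. Ifnb1, which encodes interferon beta, had no read in 3 of 4 endothelial and 3 of 4 fibroblast libraries at 28 days. The receptor chains did not pass the test at 28 days: Ifnar1 was at 96.9 and 101.6 CPM in RT and 93.2 and 101.8 CPM in sham fibroblasts, and Ifnar2 at 101.9 and 96.7 CPM in RT and 95.5 and 97.3 CPM in sham fibroblasts. Both were called higher in fibroblasts at 6 hours, with log2 fold changes of 0.20 and 0.40.

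Of 18 receptors, kinases, STATs, IRFs and inhibitors, 10 were higher and 1 lower in RT fibroblasts at 6 hours, where 12.3% of all genes were higher and 12.3% lower. Among those higher were Stat3 and Ifngr2, a chain of the interferon gamma receptor, with log2 fold changes of 0.68 and 0.57, and Irf1, a factor that interferon gamma also induces, with 0.55. In endothelial cells Irf2 was lower at 6 hours (-0.33), and Ifngr2 (0.63) and Irf8 (0.71) were higher at 28 days.

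Of 14 nucleic acid sensors and adaptors tested, 5 were higher in RT fibroblasts at 6 hours, where 12.3% of all genes were higher, and 5 at 28 days, where 2.48% were. Zbp1, a sensor of Z-form nucleic acid, was at 12.4 and 11.6 CPM in RT and 3.32 and 2.55 CPM in sham fibroblasts at 28 days (log2 fold change 2.02, SE 0.17, adjusted p = 6.63e-06), and at 14.1 and 9.92 CPM in RT and 3.15 and 4.16 CPM in sham endothelial cells (1.70, SE 0.22, adjusted p = 0.000332). It was the 1 sensor called in endothelial cells at that time, where 5.72% of all genes were higher. Tmem173, which encodes the adaptor STING, was at 38.5 and 41.0 CPM in RT and 15.1 and 14.8 CPM in sham fibroblasts at 6 hours (1.40, SE 0.11, adjusted p = 3.26e-07). Myd88, an adaptor of Toll-like receptors, and Zbp1 were higher at the same time (0.86 and 1.75). Adar, an RNA editing enzyme, was higher at 28 days (0.53). The RNA sensors Ifih1 and Ddx58 were higher in fibroblasts at 28 days (0.48 and 0.43) and not called in endothelial cells (0.17 and 0.23, adjusted p = 0.297 and 0.106).

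Genes that interferon gamma also induces were higher in fibroblasts as well, 15 of 16 tested at 6 hours, 3 at 7 days and 14 at 28 days, where 12.3%, 1.51% and 2.48% of all genes were higher. At 6 hours the guanylate-binding protein Gbp5 was at 163.5 and 160.1 CPM in RT and 16.8 and 23.0 CPM in sham fibroblasts (log2 fold change 3.02, SE 0.11, adjusted p = 1.33e-10). Tap1, the peptide transporter of antigen presentation, was higher at all 3 times (1.59, 0.45 and 0.87), as was Gbp2 (1.75, 0.39 and 0.38), and H2-K1, a class I antigen-presenting molecule, was 0.80 at 28 days. The median log2 fold change of these 16 genes in fibroblasts was 0.91 at 6 hours and 0.71 at 28 days, and that of the 32 type I genes 0.44 and 0.93. In endothelial cells 2 of 17 were higher at 28 days, where 5.72% of all genes were, and Ciita was lower (4.25% of all genes were). Those higher were the chemokines Cxcl10, at 22.4 and 21.7 CPM in RT and 3.72 and 4.53 CPM in sham cells, and Cxcl11. Both RT libraries lay above both sham libraries in 10 of the 17, where 29.3% of all genes did, and below in 3. At 7 days both RT endothelial libraries lay below both sham libraries in 12 of the 17, where 20.6% of all genes did. Their median log2 fold change was then -0.29, with 0 called. In myocytes edgeR called 0 genes of these lists at any time, with 1, 0 and 0 of the 18 receptors and factors, 0, 0 and 2 of 16 sensors and 2, 1 and 4 of 16 shared genes at an unadjusted p under 0.05 at 6 hours, 7 days and 28 days.

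Ifi205 was called in none of the 9 comparisons of RT with sham. Several of the genes lie in families of near copies, and reads can be shared between Ifit3 and I830012O16Rik, between Ifi203, Ifi204 and Ifi205, between Mx1 and Mx2 and within the Oas family, so that their values are uncertain relative to each other. Exons of 11 of the 32 genes overlap another annotated gene, 5 on the same and 6 on the opposite strand, the longest being 367 bases of Parp9 and Dtx3l. No source says whether reads were counted by strand.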

How the data were processed

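Libraries were prepared from total RNA with a SMARTer mRNA kit, per the labels' protocols. The deposited read counts per RefSeq transcript are whole numbers (33068 rows, 24061 gene names); a further column that the authors headed TPM equals their RPKM column and was used as RPKM. No aligner or counter is named in the labels or file headers, and the builds named in the submitters' processing notes are GRCm38 and mm10. Another 30 read columns in the files were not used. For each gene name the row with most reads over 36 libraries was kept, and CPM values divide by the total over these rows. Counts were tested in R 4.3.3 with edgeR 4.0.16 (quasi-likelihood test, TMM scaling, filterByExpr with a minimum count of 10 and a total of 15), with a model of group means over the 12 libraries of a cell type, or over all 36 for comparisons between cell types. P-values were adjusted over all genes tested by Benjamini-Hochberg at 0.05. Alternatives were DESeq2 1.42.0, limma 3.58.1 on log2(RPKM + 1), other size factors, no filter, summed rows, a replicate block, a single fit and leaving out each library. The test was checked on counts simulated from the measured means and spreads, with known changes set at 28 days. It recovered 19% of 2-fold and 1% of 1.5-fold changes in myocytes. In endothelial cells these shares were 74% and 44.4%, and in fibroblasts 80.8% and 59.2%. A gene not called in myocytes is therefore not shown to be unchanged. Same-numbered RT and sham libraries of a cell type and time did not deviate together (correlation of deviations -0.11 to 0.097). Whether same-numbered libraries of the 3 cell types came from the same hearts is not given in the labels and was not tested. Comparisons between cell types treated the 36 libraries as independent. The 32 genes, the gene lists and the rules were chosen with earlier results of these data known. Values per library are given for up to 8 called genes with the smallest p per comparison and for Isg15, Ifit1, Ifit3, Irf7, Oasl2 and Usp18, up to 6 genes are named per test of a difference and up to 3 per pathway list; other values per library were chosen after they were seen. Counting error alone does not cover the spread between libraries. Proteins were not used here, and 1 gene of the pathway lists is not reported here. Python 3.11.15 and pandas 2.3.3 made the summaries.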

Additional observations from a re-analysis of the deposited data

Results flagged for a closer look

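The RT minus sham change differed between the 3 times in endothelial cells for Ifi27l2a and Irf7 (adjusted p = 0.00013 each), Ifit3 (0.000177), Isg15 (0.000279), Ifi44 (0.000563) and Ifit1 (0.000579), by edgeR's test of the difference itself. In fibroblasts it differed between times for Irf7 (adjusted p = 1.65e-05), Usp18 (0.000123), Cmpk2 (0.000139), I830012O16Rik (0.000255), Bst2 (0.00045) and Ifit2 (0.000476). Between cell types it differed at 6 hours for Ifi203 (adjusted p = 0.00501), Isg15 (0.0107), Rtp4 (0.0209), Parp9 (0.0322) and Ifi204 (0.0406), at 7 days for Ifi44 (0.00181) and Oas2 (0.031), and at 28 days for Oas2 (0.00136). These are the genes with the smallest p of each test, up to 6.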

How the results depend on the processing

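Of 82 calls of single genes, none reversed under any alternative. Each call was repeated without each of the 12 libraries of its cell type. Most of those libraries lie outside the comparison and bear on it only through the shared spread, the filter and the scaling. The share of repeats kept therefore says little about leaving out a library of the comparison itself. Leaving out a library kept 883 of these repeats past the threshold and lost 101, and the other alternatives kept 518 and lost 56, of which 36 under a single fit of all 36 libraries and 14 under limma; the cause was not tested. Numbers of the 32 genes called moved as follows. Without the filter they were 10 (endothelial, 6 hours), 15 (endothelial, 7 days), 15 (endothelial sham between times), 3, 8 (myocyte, 7 and 28 days), 6 and 4 (myocyte response and sham between times), 12 (fibroblast, 7 days), 9 (fibroblast sham between times), and 10, 15 and 8 for differences between cell types at 6 hours, 7 days and 28 days. DESeq2 gave 4 and 7 (endothelial, 6 hours and 7 days), 5 (myocyte, 28 days), 2 (myocyte between times), 4 (fibroblast sham between times), and 9 and 5 for differences between cell types at 6 hours and 28 days. Limma gave 1 (endothelial, 7 days), 2 (myocyte, 28 days), 2 (fibroblast, 7 days), 14 and 0 (fibroblast response and sham between times) and 1 (between cell types, 7 days). The single fit gave 1, 1 and 5 (endothelial 6 hours, 7 days, sham between times), 1, 4, 9, 4 and 1 (myocyte 6 hours, 7 days, 28 days, response and sham between times), and 8, 1, 7 and 0 (fibroblast 6 hours, 7 days, response and sham between times). Summing rows gave 0 for fibroblast sham between times.

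Leaving out each library in turn gave 0 to 5, 0 to 6 and 13 to 19 in endothelial cells at 6 hours, 7 days and 28 days, 10 to 19 for their difference between times and 2 to 10 for sham. In myocytes the ranges were 0 to 1, 0 to 10, 0 to 7, 0 to 18 and 0 to 1 in the same order, and in fibroblasts 14 to 24, 1 to 7, 24 to 31, 13 to 21 and 0 to 2. Differences between cell types ranged over 1 to 10, 1 to 19 and 1 to 5 at 6 hours, 7 days and 28 days, and sham levels over 30 to 31, 29 to 31 and 23 to 25. A group left with 1 library was assumed to vary like the others. With the replicate block, the number of fibroblast sham genes that differed between times was 3, and no other number moved by over 1.5 times (17 and 31 in endothelial cells and fibroblasts at 28 days). Myocyte libraries were the shallowest, and their biological coefficient of variation was 0.172, against 0.0958 in endothelial and 0.0677 in fibroblast libraries.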
